A study of Arabidopsis thaliana with 18 samples.

Results

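miR161 and miR400 are *Arabidopsis* miRNAs whose known targets are mRNAs of pentatricopeptide repeat (PPR) proteins. Entries were taken by name, as all those of the miR161 and miR400 families in the deposited miRNA table, and 3 of its entries met this rule: miR161.1, miR161.2 and miR400. The families themselves were chosen with earlier results of these data known. The table has 203 miRNA names, of which identical ones share an entry. All 3 members passed the filter on low values (a mean of at least 1 over the libraries), as did 139 entries in all.

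The levels come from 18 small RNA libraries of whole 4-d-old seedlings, 3 for each of 3 genotypes at 21 °C and 3 at 27 °C. The genotypes were Col-0 (the wild type), *hyl1-2* (null for HYL1, a protein that binds double-stranded RNA and helps the RNase III enzyme DCL1 to cut miRNAs out) and *dcl1-24/hyl1-2*, which carries the same *hyl1-2* allele together with *dcl1-24*, a dominant substitution in the RNase IIIa domain of DCL1 that suppresses *hyl1-2*. The line used for these libraries is a single line from a chemical mutagenesis of *hyl1-2*. Both mutants are in the Col-0 background, and all seedlings grew in red light at 21 °C for 48 h before another 48 h at the final temperature. The question put to these libraries was how far the loss of HYL1 lowers each miRNA, how far the DCL1 substitution brings it back, and whether warmth changes it.

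PPR proteins bind RNA in mitochondria and chloroplasts, where they take part in the cutting, editing and stabilizing of organelle transcripts. In *Arabidopsis* a recently expanded group of their genes, which includes RNA PROCESSING FACTOR genes related to restorers of male fertility, is kept under small RNA control. miR161 and miR400 pair with these mRNAs directly, and miR173 acts by a second route: its cut of *TAS1* and *TAS2* transcripts starts the making of secondary siRNAs, some of which also pair with PPR mRNAs. Like most plant miRNAs, all are cut from hairpin precursors by DCL1 with the help of HYL1.

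The mature sequences are shown because the 3 members have predicted sites in overlapping sets of PPR genes without sharing a seed. They are from the RefSeq annotation of TAIR10.1, in which all 3 matched by name, and run 5′ to 3′ with bases 2 to 8, the seed, in capitals.
miR161.1: uGAAAGUGacuacaucggggu
miR161.2: uCAAUGCAuugaaagugacua
miR400: uAUGAGAGuauuauaagucac
Each has 21 bases and begins with U. No 2 of the 3 have the same seed. miR161.1 lies at chr1:17825731-17825751 and miR161.2 at chr1:17825722-17825742, both on the plus strand of *MIR161* (AT1G48267, chr1:17825685-17825857). They therefore come from overlapping stretches of a single arm of a single hairpin, miR161.2 starting 9 bases before miR161.1. The window that holds both, chr1:17825722-17825751, is shown with the 12 bases common to both in capitals.
MIR161 window: ucaaugcauUGAAAGUGACUAcaucggggu
In the predicted minimum free energy fold of this precursor (−63 kcal/mol), 20 of the 21 bases of miR161.1 and 19 of the 21 bases of miR161.2 were paired. miR400 lies at chr1:11785947-11785967 in the 102-base precursor *MIR400* (AT1G32582, chr1:11785936-11786037, −38.2 kcal/mol), where 20 of its 21 bases were paired. *MIR400* sits inside the 306-base intron 1 (chr1:11785917-11786222) of the longer annotated mRNA of AT1G32583, on the same strand and before the coding start of that host gene.

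Complementary sites were searched in every annotated mRNA of 27444 protein-coding genes, of which 483 (1.76%) are annotated as PPR proteins. A site was scored by 1 for a mismatch and 0.5 for a G:U pair, doubled at miRNA positions 2 to 13, and kept at a score of at most 4, with no gap allowed. miR161.1 had sites in 13 genes, and all 13 were PPR genes. miR161.2 had sites in 22 genes, of which 21 were PPR genes, and miR400 in 24, of which 23 were PPR genes. The exceptions were AT5G63625 for miR161.2, at a score of 3.5, and AT2G28680 for miR400, at 4. All 59 sites lay within a single exon, and 58 lay in the coding stretch of the mRNA. These are matches of sequence, and no cleavage of any mRNA was measured in these libraries.

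The lowest-scoring site of each member is shown as it runs in the mRNA, with capitals for bases in Watson-Crick pairs. The site of miR161.1 is in *RPF2* (AT1G62670, chr1:23205678-23205698, minus strand, score 2.5), which encodes a factor that helps to form the ends of mitochondrial transcripts. That of miR161.2 is in AT1G62590 (chr1:23178190-23178210, minus strand, score 1). That of miR400 is in AT1G06580 (chr1:2014950-2014970, minus strand, score 0) and is paired at every base. Other sites of miR161.1 reached the same score of 2.5, and other sites of miR161.2 the same score of 1. The ones printed come first by locus.
RPF2 site of miR161.1: ACCCuGAUGUAuUCACUUUCA
AT1G62590 site of miR161.2: UAGUCACgUUCAAUGCAUUGA
AT1G06580 site of miR400: GUGACUUAUAAUACUCUCAUA
The members shared many of these genes. All 13 PPR genes with a miR161.1 site also had a miR161.2 site (61.9% of the 21 genes of miR161.2). Of these, 9 had a miR400 site too, which is 69.2% of the genes of miR161.1 and 39.1% of the 23 genes of miR400. In 11 of the 13 genes the sites of miR161.1 and miR161.2 were offset by 9 bases, the same offset as in the precursor. A run of 30 bases of mRNA thus lies against the whole *MIR161* window, with 25 to 27 of the bases in Watson-Crick pairs. An example with one of the lowest summed scores is AT1G63400 (chr1:23508299-23508328, plus strand), in which 26 of the 30 bases pair.
AT1G63400 joint site: AuCCaaAUGUAGUCACUUUCAAcGCAUUGA
Of the 30 PPR genes with a site for any member, 20 (66.7%) are on chromosome 1, against 31.3% of all annotated PPR genes. A stretch of 809.8 kb there, chr1:23178190-23988013, holds 17 of the 30. The stretch was delimited after the sites were seen, and 21 PPR genes are annotated within it.

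The authors divided the reads of each miRNA by those of 45S rRNA in that library (RPMR). Each value was a whole multiple of what a single read is worth in its library, from 0.240 to 0.896 RPMR, and read numbers given here are those that the multiples imply. The implied miRNA reads ranged from 11040 to 173156 per library. They were fewest in *hyl1-2* at 21 °C, where the 3 libraries held 11040 to 13765. *HYL1* and *DCL1* mRNAs are not among the entries, so the genotype labels were not checked against them. In whole seedlings, fewer cells that express a miRNA and less of it per cell cannot be told apart.

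miR161.1 was the abundant member, at a mean of 742 RPMR over the 18 libraries, against 10.4 for miR161.2 and 2.83 for miR400. It ranked between the 6th and the 16th of all entries in every library. In Col-0 at 21 °C it reached 2261, 884 and 1015 RPMR in replicates 1, 2 and 3 (mean 1387 ± 760 SD, n = 3), and at 27 °C 1281, 1869 and 868 RPMR (1340 ± 503). In *hyl1-2* it reached 76.7, 57.9 and 41.9 RPMR at 21 °C (58.8 ± 17.4) and 303, 118 and 122 RPMR at 27 °C (181 ± 106). No *hyl1-2* library came near the lowest Col-0 library. In *dcl1-24/hyl1-2* it reached 748, 455 and 570 RPMR at 21 °C (591 ± 148) and 512, 623 and 1541 RPMR at 27 °C (892 ± 565). Each *dcl1-24/hyl1-2* library lay above every *hyl1-2* library. All 3 lay below every Col-0 library at 21 °C, whereas the highest at 27 °C lay among those of Col-0. The summed RPMR of all miRNAs also set *hyl1-2* apart. Its highest *hyl1-2* library had 18740, while the lowest of Col-0 had 23503 and the lowest of *dcl1-24/hyl1-2* 28742. The separation of *hyl1-2* is therefore not shown to be particular to miR161.1.

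miR161.2, the lesser product of the same hairpin, followed the same order at a far lower level. In Col-0 it reached 13.9, 13.1 and 18.9 RPMR at 21 °C (15.3 ± 3.16 SD, n = 3) and 10.9, 45.7 and 8.53 RPMR at 27 °C (21.7 ± 20.8). In *hyl1-2* it reached 0.504, 1.11 and 0.340 RPMR at 21 °C (0.652 ± 0.407), or 4 reads in all, and 0.962, 4.00 and 0 RPMR at 27 °C (1.65 ± 2.09), or 13 reads. The library without a read, replicate 3 at 27 °C, allows up to 1.0 RPMR (3 reads). In *dcl1-24/hyl1-2* it reached 4.59, 12.3 and 18.8 RPMR at 21 °C (11.9 ± 7.12) and 4.35, 13.4 and 15.8 RPMR at 27 °C (11.2 ± 6.04). The *hyl1-2* libraries were again below all others, while those of *dcl1-24/hyl1-2* and Col-0 overlapped at both temperatures.

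miR400 was close to the limit of these libraries. In Col-0 it reached 3.47, 8.45 and 4.73 RPMR at 21 °C (5.55 ± 2.59 SD, n = 3; 37 reads in all) and 5.44, 10.6 and 1.71 RPMR at 27 °C (5.92 ± 4.47; 44 reads). In *hyl1-2* it reached 0, 1.11 and 0.340 RPMR at 21 °C, a total of 3 reads, and 1.20, 0.444 and 0 RPMR at 27 °C, a total of 6 reads. The libraries at 0 allow up to 1.51 RPMR (replicate 1 at 21 °C) and 1.0 RPMR (replicate 3 at 27 °C). With *dcl1-24* added it reached 0.835, 5.66 and 2.69 RPMR at 21 °C (3.06 ± 2.44; 17 reads) and 0.870, 2.23 and 1.09 RPMR at 27 °C (1.40 ± 0.728; 10 reads). The Col-0 and *hyl1-2* libraries did not overlap in RPMR at either temperature, but the *dcl1-24/hyl1-2* libraries overlapped with *hyl1-2* at both and with Col-0 at both. At 27 °C the lowest Col-0 library (replicate 3, 1.71 RPMR) and the highest *hyl1-2* library (replicate 1, 1.20 RPMR) each held 5 reads. Their gap comes from the rRNA reads alone. How many of all entries had groups that did not overlap was not counted. Such separation is therefore not shown to be particular to any of the 3 members.

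**Figure D1:**
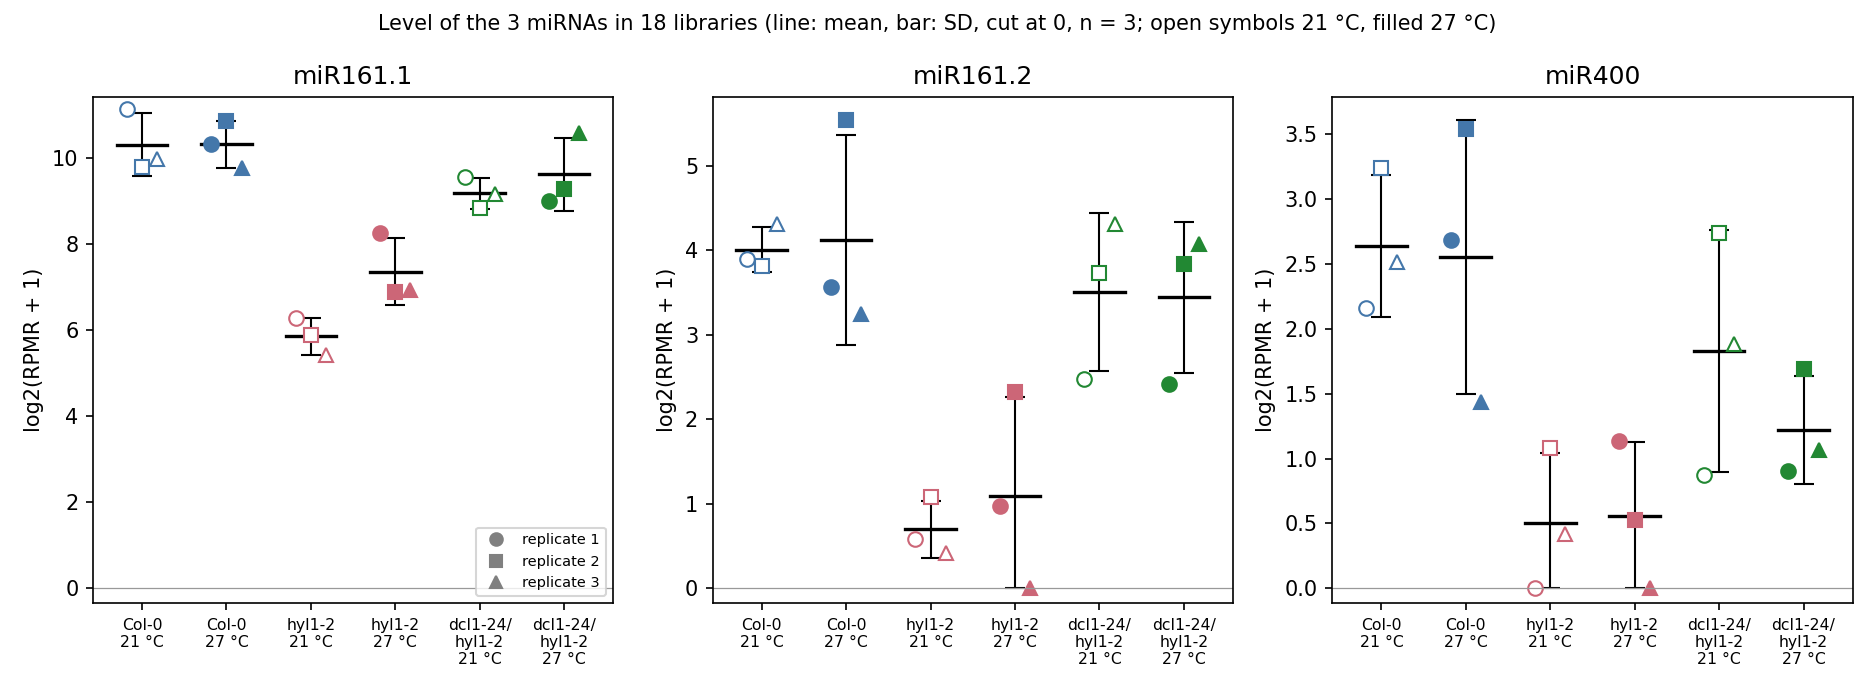
Level of miR161.1, miR161.2 and miR400 (vertical axes, log2(RPMR + 1)) in each of the 18 libraries, by genotype and temperature, with the mean and SD of 3 libraries per group. For miR161.1 and miR161.2 every *hyl1-2* point lies below every Col-0 and *dcl1-24/hyl1-2* point, while the *dcl1-24/hyl1-2* points of miR400 reach down among those of *hyl1-2*.

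Relative to 45S rRNA, loss of HYL1 lowered all 3 members at both temperatures. Relative to the other miRNAs, by the 3 scalings described further on, the call held in all 3 for miR161.1 at 21 °C and in none for miR400. miR161.1 in *hyl1-2* was 4.24% of its Col-0 mean at 21 °C and 13.5% at 27 °C, miR161.2 was 4.27% and 7.61%, and miR400 8.73% and 9.27%. On the log2(RPMR + 1) scale, which understates the change of low entries, miR161.1 fell by 4.45 (SE 0.68, limma adjusted p = 3.4e-08) at 21 °C and by 2.96 (SE 0.68, adjusted p = 2.1e-04) at 27 °C. miR161.2 fell by 3.31 (SE 0.71, adjusted p = 4.1e-05) and by 3.03 (SE 0.71, adjusted p = 2.6e-04). miR400 fell by 2.14 (SE 0.59, adjusted p = 0.0012) and by 2.00 (SE 0.59, adjusted p = 0.0033). The call of miR400 at 27 °C was lost without Col-0 replicate 2 at 27 °C (−1.51, adjusted p = 0.052). All 3 also met a second rule, an unadjusted limma p under 0.01 with a fold change over 2, at both temperatures.

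Such a fall was common among the miRNAs. In *hyl1-2*, 59.7% of the 139 entries tested were lower at an adjusted p under 0.05 at 21 °C and 54% at 27 °C. By the second rule the shares were 52.5% and 46%. The median log2 fold change of all entries was −1.95 at 21 °C and −1.62 at 27 °C. The fall of miR161.1 was the 7th largest of the 139 at 21 °C and the 22nd largest at 27 °C, and that of miR161.2 the 24th and the 19th. miR400, the 65th and the 53rd, was near the median. A ratio of pooled reads, with an exact interval for counting error only, put miR400 in *hyl1-2* at 0.0785 of Col-0 at 21 °C (95% interval 0.0155 to 0.248) and at 0.113 at 27 °C (0.0392 to 0.265).

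miR173-5p, the only entry of miR173 and the trigger of the siRNA route to PPR mRNAs, was lowered further than any member in these values. It fell from 135 ± 59.8 RPMR in Col-0 to 1.57 ± 1.68 in *hyl1-2* at 21 °C (SD, n = 3) and from 293 ± 183 to 2.33 ± 1.16 at 27 °C, which left 1.16% and 0.795% of the Col-0 mean. The log2 fold changes were −5.88 (SE 0.75, limma adjusted p = 6.5e-11) and −6.30 (SE 0.75, adjusted p = 1.4e-11), the 4th largest and the largest fall of the 139 entries. The difference between miR173-5p and miR161.1 was not tested.

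Relative to rRNA reads, the scale of the deposited values, the *dcl1-24* substitution raised both products of *MIR161* at both temperatures. Relative to the other miRNAs, by the scalings described further on, no member passed in this comparison at either temperature. Relative to *hyl1-2*, miR161.1 in *dcl1-24/hyl1-2* rose by a log2 fold change of 3.32 (SE 0.68, limma adjusted p = 2.4e-05) at 21 °C and 2.26 (SE 0.68, adjusted p = 0.0051) at 27 °C. miR161.2 rose by 2.81 (SE 0.71, adjusted p = 4.1e-04) and 2.35 (SE 0.71, adjusted p = 0.0051). Leaving out *dcl1-24/hyl1-2* replicate 3 at 27 °C, the highest of its group, ended the call of miR161.1 at 27 °C (1.78, adjusted p = 0.053). Leaving out *hyl1-2* replicate 3 at 27 °C ended that of miR161.2 (1.80, adjusted p = 0.069). miR400 rose at 21 °C (1.33, SE 0.59, adjusted p = 0.035) and had a log2 fold change of 0.66 (SE 0.59, adjusted p = 0.32) at 27 °C. Its pooled reads gave a ratio of 6.76 at 21 °C (95% counting interval 1.96 to 36.0) and 2.08 at 27 °C (0.686 to 6.97). The call at 21 °C was lost without *hyl1-2* replicate 1 (adjusted p = 0.13), *hyl1-2* replicate 3 (0.088), *dcl1-24/hyl1-2* replicate 2 (0.19) or *dcl1-24/hyl1-2* replicate 3 (0.066), all at 21 °C. By the second rule miR161.1 and miR161.2 were higher at both temperatures and miR400 at neither.

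A rise was again the common result. With the substitution, 79.9% of the 139 entries were higher at 21 °C and 47.5% at 27 °C (66.2% and 38.8% by the second rule), with median log2 fold changes of 2.09 and 1.46. On the log2(RPMR + 1) scale miR161.1 and miR161.2 lay above these medians at both temperatures and miR400 below them, although the pooled reads of miR400 gave the ratio of 6.76 at 21 °C. miR173-5p rose by 3.52 (SE 0.75, adjusted p = 4.0e-05) and 3.04 (SE 0.75, adjusted p = 0.0010).

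The level reached in *dcl1-24/hyl1-2* was 42.6% of the Col-0 mean for miR161.1 at 21 °C and 66.6% at 27 °C. It was 77.8% and 51.5% for miR161.2, and 55.2% and 23.6% for miR400. The share of 51.5% rests on Col-0 replicate 2 at 27 °C (45.7 RPMR, against 10.9 and 8.53 in the other replicates), without which the log2 difference of miR161.2 from Col-0 was 0.033. In the limma fit none of these differences from Col-0 passed at either temperature, where 7.91% (21 °C) and 10.1% (27 °C) of all entries were lower than in Col-0. For miR161.1 the log2 difference from Col-0 was −1.13 (95% interval −2.48 to 0.23, adjusted p = 0.29) at 21 °C and −0.69 (−2.05 to 0.66, adjusted p = 0.48) at 27 °C. For miR161.2 it was −0.50 (−1.91 to 0.91) and −0.68 (−2.08 to 0.73). For miR400 it was −0.81 (−1.99 to 0.37) and −1.33 (−2.51 to −0.16, adjusted p = 0.089). Apart from the last, these intervals take in a full return as well as a shortfall of 2-fold or more. miR400 at 27 °C was called lower when Col-0 replicate 3 at 27 °C, the lowest of its group, was left out (−1.89, adjusted p = 0.019). miR173-5p stayed below Col-0 at both temperatures, at 18.6% and 9.91% of its mean (log2 fold changes −2.36, SE 0.75, adjusted p = 0.013, and −3.26, SE 0.75, adjusted p = 3.9e-04).

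**Figure D2:**
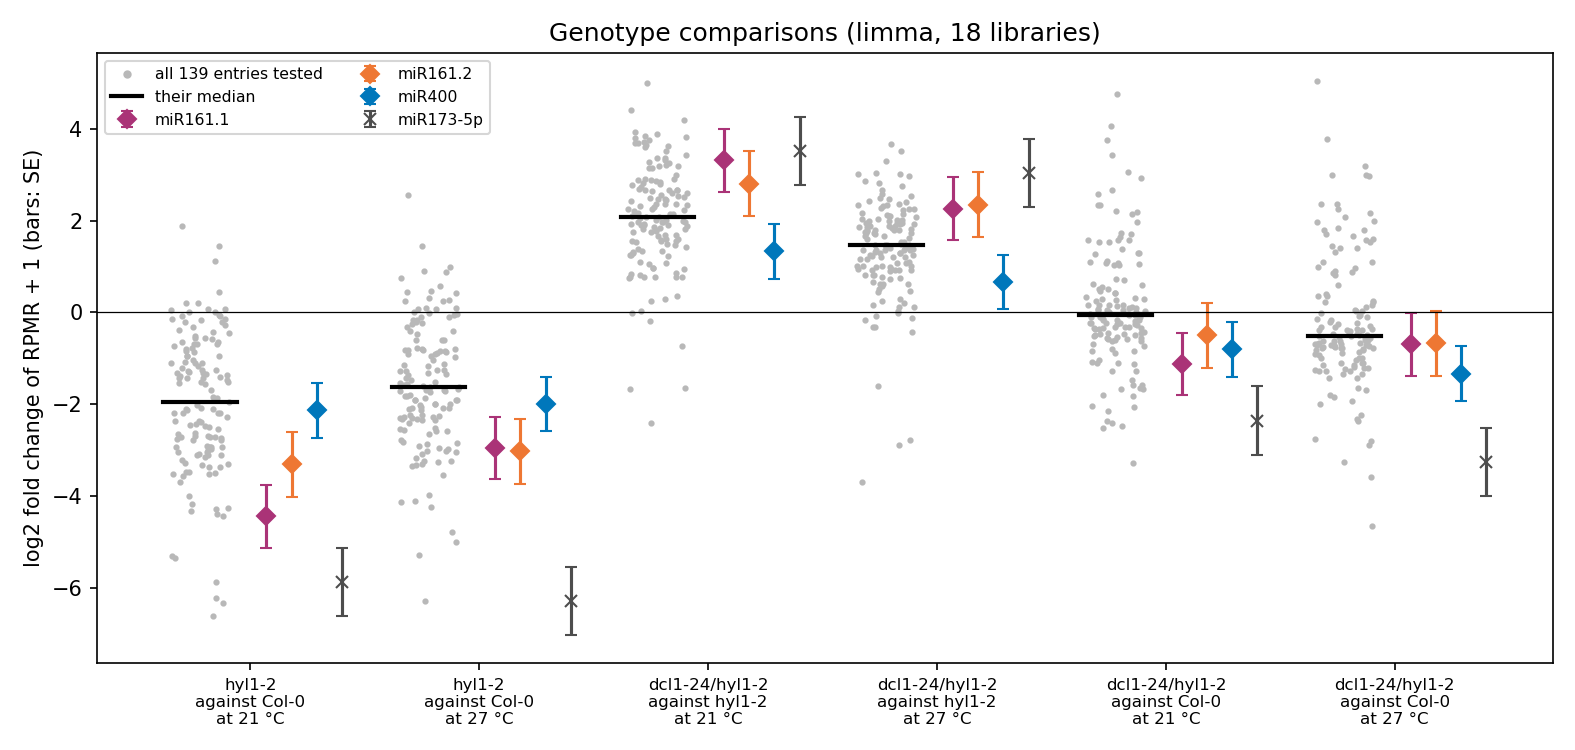
Log2 fold change of RPMR + 1 (vertical axis) for the genotype comparisons at 21 and 27 °C. Grey points are the 139 entries tested and the black line their median, diamonds are miR161.1, miR161.2 and miR400 and crosses miR173-5p, with SE. In *hyl1-2* against Col-0 miR161.1 lies at −4.45 and −2.96, below the medians of −1.95 and −1.62. miR400 lies near these medians on this scale, which understates the change of low entries.

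Levels were also compared over both temperatures for each member by itself, with an exact two-sided permutation test of the genotype labels within temperature (400 arrangements, smallest possible p = 0.005, 9 tests adjusted together). miR161.1, miR161.2 and miR400 were each lower in *hyl1-2* than in Col-0, with differences of −3.70, −3.17 and −2.07 in mean log2(RPMR + 1), each at this smallest p (adjusted p = 0.009, 6 libraries per genotype, exact permutation). Relative to *hyl1-2*, miR161.1 and miR161.2 in *dcl1-24/hyl1-2* were higher by 2.79 and 2.58, at the same p. miR400 was higher by 1.0 (exact permutation p = 0.03, adjusted p = 0.045). Against Col-0, miR161.1 in *dcl1-24/hyl1-2* was lower, with a difference of −0.91 (exact permutation p = 0.035, adjusted p = 0.045), whereas the limma test at each single temperature, adjusted over 139 entries, did not pass. For miR400 the difference was −1.07 (exact permutation p = 0.045, adjusted p = 0.051), and for miR161.2 it was −0.59 (p = 0.28). This test was run on the members only, so how many of all entries would pass it is not known. By limma a fall in *hyl1-2* was called for 59.7% of the 139 entries at 21 °C and 54% at 27 °C. A rise with the substitution was called for 79.9% and 47.5%. The permutation results are therefore not shown to be particular to the members.

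The choice of reference changed several of these results. When libraries were instead set to equal summed miRNA RPMR, to an equal sum without miR5026, or to equal median ratios of the miRNAs, the median of all entries in *hyl1-2* at 21 °C moved from −1.95 to −0.21, 0.21 and −0.36. Relative to the other miRNAs, miR161.1 in *hyl1-2* at 21 °C was still lower under all 3 scalings (log2 fold change −1.60, −1.03 and −1.80, each at a limma adjusted p under 0.05). Of the 139 entries tested, 28, 23 and 35 were called lower there, under the 3 scalings in turn. At 27 °C miR161.1 was lower under the first (−1.13), but not under the second (−0.30, adjusted p = 0.49) or the third (−0.90, adjusted p = 0.053). Called lower at 27 °C were 30, 15 and 23 of the 139 entries. miR161.2 in *hyl1-2* passed at 27 °C under the first (−1.92) and at 21 °C under the third (−1.65), but not in the other 4 cases. miR400 in *hyl1-2* passed in none of the 6 (limma adjusted p from 0.15 to 0.70). Neither product of *MIR161* nor miR400 passed in *dcl1-24/hyl1-2* against *hyl1-2* under any of the 3, at either temperature. For miR161.1 the values at 21 °C were 0.18, 0.53 and 0.86. Of the 139 entries, 21, 23 and 40 were called higher in this comparison at 21 °C, and 4, 18 and 18 at 27 °C. Against Col-0 at 21 °C, miR161.1 in *dcl1-24/hyl1-2* was lower under the first (−1.42, adjusted p = 0.012) and the third (−0.95, adjusted p = 0.046). There 18, 7 and 16 of the 139 entries were called lower under the 3 scalings in turn. Which reference was itself the same in all genotypes cannot be told apart from these values.

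**Figure D3:**
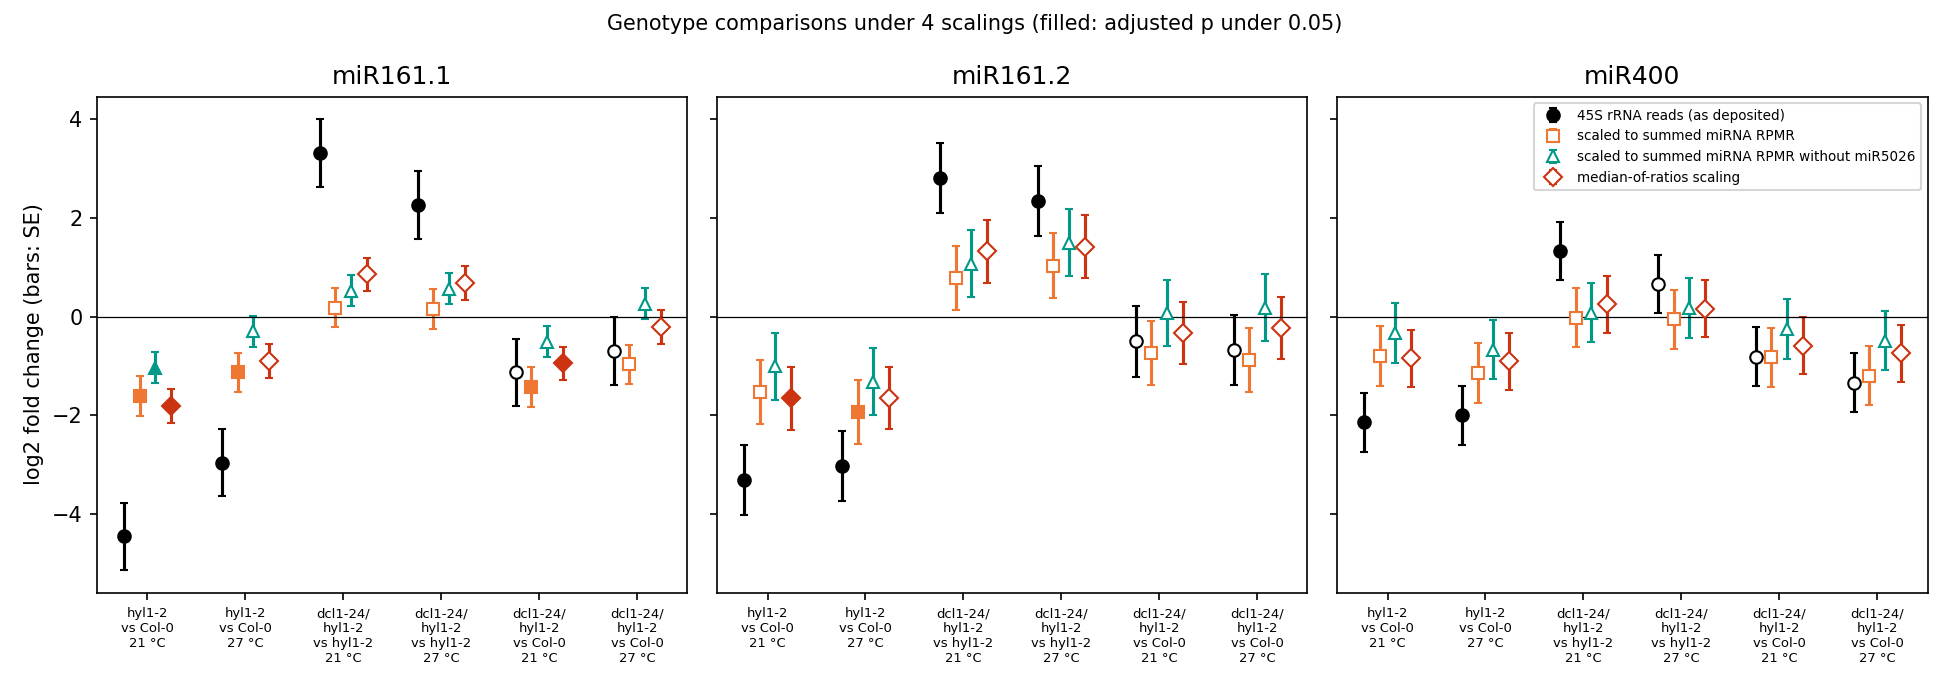
Log2 fold change with SE (vertical axis) of miR161.1, miR161.2 and miR400 in the genotype comparisons under the deposited scaling to 45S rRNA reads and 3 scalings to the miRNAs themselves; filled symbols have an adjusted p under 0.05. The black points of *dcl1-24/hyl1-2* against *hyl1-2*, 3.32 and 2.26 for miR161.1, are above those of the other scalings, all of which are open there.

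As a share of the miRNA pool, miR161.1 in Col-0 made up 3.20% ± 1.04 of the summed RPMR at 21 °C and 3.13% ± 0.528 at 27 °C (SD, n = 3). In *hyl1-2* its share was 1.04% ± 0.257 and 1.44% ± 0.259, and in *dcl1-24/hyl1-2* 1.32% ± 0.695 and 1.62% ± 0.392. These shares depended on a single other entry, miR5026. Without it they were 3.29% and 3.20% in Col-0, 1.57% and 2.62% in *hyl1-2*, and 2.33% and 3.89% in *dcl1-24/hyl1-2*, at 21 and 27 °C in turn.

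No effect of warmth on a member passed. In Col-0 the log2 fold change from 21 to 27 °C was 0.01 for miR161.1 (95% interval −1.34 to 1.37), 0.11 for miR161.2 (−1.29 to 1.52) and −0.08 for miR400 (−1.26 to 1.09). In *dcl1-24/hyl1-2* the values were 0.45 (−0.91 to 1.80), −0.06 (−1.47 to 1.34) and −0.61 (−1.79 to 0.57). In *hyl1-2* they were 0.40 (−1.01 to 1.81) for miR161.2 and 0.06 (−1.12 to 1.23) for miR400. miR161.1 in *hyl1-2* had the largest value, 1.50 (0.15 to 2.86, unadjusted p = 0.030, limma adjusted p = 0.40). Its 3 libraries at 27 °C (118 to 303 RPMR) were all above those at 21 °C (41.9 to 76.7 RPMR), while the median of all entries there was 0.58. The summed RPMR of all miRNAs in *hyl1-2* separated in the same way, at 7850 to 18740 against 3757 to 7657. Such separation is therefore not shown to be particular to miR161.1. Under the scalings to summed miRNA RPMR, to that sum without miR5026 and by median ratios, the value of 1.50 became 0.48, 0.73 and 0.54. Few entries were called by warmth at all. They were 0.719% of the 139 in Col-0, 1.44% in *dcl1-24/hyl1-2* and 0% in *hyl1-2*. At an unadjusted p under 0.05 the limma counts were 14 entries in Col-0, 12 in *dcl1-24/hyl1-2* and 16 in *hyl1-2*.

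The warm response of miR161.1 in *hyl1-2* was not shown to differ from that in Col-0 (difference 1.49, 95% interval −0.43 to 3.41, limma adjusted p = 0.99; 0.48 to 0.90 under the 3 other scalings) or from that in *dcl1-24/hyl1-2*, which was lower by 1.06 (−2.97 to 0.86 for *dcl1-24/hyl1-2* minus *hyl1-2*, adjusted p = 0.75). For *dcl1-24/hyl1-2* minus Col-0 the difference was 0.43 (−1.48 to 2.35). No member was called in any of these differences between genotypes, and neither was any of the 139 entries (0% called). At an unadjusted p under 0.05 the limma fit had 4 entries for *hyl1-2* against Col-0, 1 for *dcl1-24/hyl1-2* against Col-0 and 4 for *dcl1-24/hyl1-2* against *hyl1-2*.

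Reads of miR161.2 were few beside those of miR161.1 in all genotypes. Of the reads of miR161.1 and miR161.2 together, miR161.2 made up 1.36% in Col-0 (262 of 19257 reads, 95% Wilson interval 1.21 to 1.53), 0.743% in *hyl1-2* (17 of 2289 reads, 0.464 to 1.19) and 1.39% in *dcl1-24/hyl1-2* (132 of 9511 reads, 1.17 to 1.64). These intervals cover counting error only, and single libraries varied more, from 0.609% to 2.39% in Col-0, from 0% to 3.27% in *hyl1-2* and from 0.610% to 3.20% in *dcl1-24/hyl1-2*. The ranges of the 3 genotypes overlapped, although the pooled intervals of Col-0 and *hyl1-2* did not, and no test of the difference was made. In *hyl1-2*, 1266 of the 2289 pooled reads came from replicate 1 at 27 °C, where the share was 0.316%. Mean shares of 3 libraries at 21 and 27 °C were 1.12% and 1.20% in *hyl1-2*, against 1.30% and 1.40% in Col-0. The *hyl1-2* library with no miR161.2 read had 365 reads of miR161.1, which allows a share of up to 0.822% (3 reads) or, by the 95% Wilson interval, 1.04%. How reads that fit both miRNAs were assigned is not given in the sources used here.

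**Figure D4:**
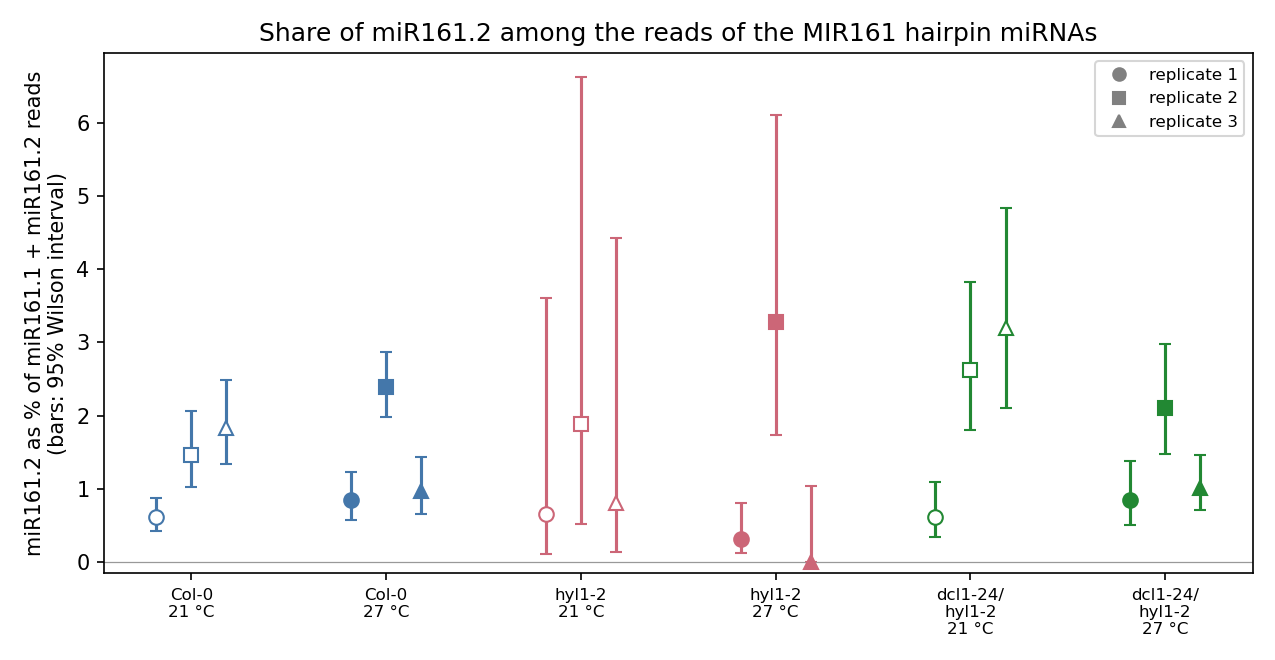
Share of miR161.2 in the reads of miR161.1 and miR161.2 (vertical axis, %) in each library by genotype and temperature, with 95% Wilson intervals. The shares lie between 0% and 3.27%, and the groups overlap.

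Across the 18 libraries the entries most like miR161.1 by Pearson's correlation of log2(RPMR + 1) were the shared entry of miR156a-5p to miR156f-5p (r = 0.975), the shared entry of miR165a-3p and miR165b (0.973) and miR159b-3p (0.972). These are guide strands of abundant, conserved families with transcription factor targets. Those most like miR161.2 were the entry of miR781a and miR781b (0.953), miR858a (0.951), which acts on MYB mRNAs, and miR824-5p (0.948), which acts on *AGL16*. Most entries move together in these libraries, which share their scaling and the 3 genotypes: the median correlation with miR161.1 over the other 138 entries was 0.744, and 54 of them were over 0.8. The products of the same hairpin, miR161.1 and miR161.2, had a correlation of 0.858 with each other, in which miR161.2 ranked 38th among the entries most like miR161.1.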

How the data were processed

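Small RNA of 18 libraries was sequenced by the authors, who trimmed adapters with cutadapt 3.0, placed reads on Araport11 with ShortStack and tested miRNAs with DESeq2 1.35.0. The deposited values are RPM-like: the authors divided the reads of each miRNA by the 45S rRNA reads of its library (RPMR). Raw counts were not used here, so no count model was run. All values were whole multiples of the smallest of their column (largest deviation 1.1e-10, tolerance 1e-06), which gave implied reads for depth and intervals. No column was left out (0 unmapped).

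Tests were made on log2(RPMR + 1) with limma 3.58.1 (R 4.3.3, variance trend, 6 group means, two-sided, Benjamini-Hochberg over the 139 entries that averaged 1 RPMR or more), and tested on simulated data. Exact permutation tests, ratios and intervals used Python 3.11.15 (numpy 2.4.6, pandas 2.3.3, scipy 1.17.1), figures matplotlib 3.10.9, and hairpins RNAfold 2.7.2. The paper calls the replicates independent biological replicates, without saying whether they were separate plantings, and p-values measure only the spread between these libraries. In limma this spread was shared over the 139 entries, many of which move together. Its tests therefore had 118.7 degrees of freedom, more than 18 libraries give for a single entry. Small limma p-values from 3 against 3 libraries rest mostly on the shared spread. Same-numbered libraries deviated together (each r over 0.1) only at 27 °C for *hyl1-2* with Col-0 (0.16 to 0.48) and for *dcl1-24/hyl1-2* between temperatures (0.14 to 0.27). This pairing rests on the values alone. Coordinates and sequences are from RefSeq TAIR10.1, since the table holds none. PPR genes are those whose own product or description names pentatricopeptide. Named entries are the members, miR173, miR5026 where a scaling leaves it out, and the 3 entries most correlated with each member of at least 5 RPMR. The members and lists were chosen with earlier results of these data known. Alternatives were pseudocounts of 0.5 and 5, no filter, 3 scalings to the miRNAs, a replicate block, only the groups compared, and leaving out each library.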

Additional observations from a re-analysis of the deposited data

How the results depend on the processing

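Values are log2 fold changes, and the cause of each change was not tested unless named. For the 3 members, every limma genotype and temperature comparison, and each difference of warm responses of miR161.1, kept its direction and its side of adjusted p = 0.05 with a pseudocount of 0.5, with no filter, with only the groups compared and with the replicate number as a block (replicate block: miR161.1 in *hyl1-2* against Col-0 −4.45 at 21 °C, adjusted p = 9.3e-09). A pseudocount of 5 ended only the call of miR400 in *dcl1-24/hyl1-2* against *hyl1-2* at 21 °C (0.52, adjusted p = 0.093).

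Scaled to summed miRNA RPMR, *hyl1-2* against Col-0 no longer passed for miR400 (−0.80 and −1.14 at 21 and 27 °C) and for miR161.2 at 21 °C (−1.52). *dcl1-24/hyl1-2* against *hyl1-2* no longer passed for miR161.1 (0.18, 0.16) and miR161.2 (0.79, 1.04), and miR400 turned to −0.021 and −0.053. miR161.1 in *dcl1-24/hyl1-2* against Col-0 at 21 °C passed (−1.42). The warm response in *hyl1-2* turned to −0.50 for miR400 and −0.32 for miR161.2.

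Without miR5026 in that sum, the first comparison no longer passed for miR400 (−0.33, −0.66), miR161.2 (−1.0, −1.32) and miR161.1 at 27 °C (−0.30). The second no longer passed for miR161.1 (0.53, 0.56), miR161.2 (1.08, 1.50) and miR400 at 21 °C (0.083). Against Col-0, *dcl1-24/hyl1-2* turned to 0.075 and 0.19 for miR161.2 and to 0.26 for miR161.1 at 27 °C. Warm responses turned to −0.49 (miR400) and −0.23 (miR161.2) in *hyl1-2*, to 0.20 (miR161.2) in *dcl1-24/hyl1-2* and to −0.0016 (miR161.1) in Col-0, and the response of miR161.1 in *dcl1-24/hyl1-2* minus that in *hyl1-2* to 0.034.

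With median-of-ratios factors, the first comparison no longer passed for miR400 (−0.84, −0.91) and, at 27 °C, miR161.2 (−1.65) and miR161.1 (−0.90). The second no longer passed for miR161.1 (0.86, 0.69), miR161.2 (1.32, 1.42) and miR400 at 21 °C (0.26). miR161.1 against Col-0 at 21 °C passed (−0.95). Warm responses turned to −0.24 (miR161.2) and −0.37 (miR161.1) in Col-0 and to −0.49 (miR400) and −0.24 (miR161.2) in *hyl1-2*.

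Leaving out each library in turn changed a call or a direction in these results, with their lowest and highest values. In *hyl1-2* against Col-0 at 27 °C miR400 ranged from −2.56 to −1.51, where it was lost without Col-0 replicate 2 (adjusted p = 0.052). In *dcl1-24/hyl1-2* against *hyl1-2* the ranges were 0.88 to 1.81 for miR400 at 21 °C, 1.80 to 2.96 for miR161.2 at 27 °C and, at 27 °C, 1.78 to 2.71 for miR161.1. In *dcl1-24/hyl1-2* against Col-0 they were −0.90 to 0.011 (21 °C) and −1.11 to 0.033 (27 °C) for miR161.2 and −1.89 to −0.84 for miR400 at 27 °C. Uncalled warm responses in Col-0 ranged from −0.26 to 0.43 (miR161.1), −0.60 to 0.55 (miR161.2) and −0.58 to 0.47 (miR400), in *hyl1-2* from −0.21 to 0.95 (miR161.2) and −0.24 to 0.35 (miR400), and in *dcl1-24/hyl1-2* from −0.036 to 0.76 (miR161.1) and −0.57 to 0.45 (miR161.2). The response of miR161.1 in *dcl1-24/hyl1-2* minus that in Col-0 ranged from −0.048 to 0.75. None of the 3 members was called in a difference of warm responses under the alternatives run. miR173-5p and the permutation tests were not run under these alternatives. Depth limits miR400 and miR161.2 most: their *hyl1-2* groups hold 3 to 13 reads.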

Other observations

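The share of miR161.2 among the reads of miR161.1 and miR161.2 differed between the libraries numbered 1 and 2 in the labels. In the libraries numbered 1 it was 0.609% and 0.842% in Col-0, 0.654% and 0.316% in *hyl1-2*, and 0.610% and 0.843% in *dcl1-24/hyl1-2*, at 21 and 27 °C in turn. In those numbered 2 it was 1.46% and 2.39%, 1.89% and 3.27%, and 2.63% and 2.10%. The library numbered 2 was therefore above the one numbered 1 in all 6 groups, although in *hyl1-2* at 21 °C this rests on 2 reads against 1. Those numbered 3 varied from 0% to 3.20%. The labels do not say what libraries of the same number share, and the pattern was noticed after the values were seen and was not tested.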
